A study of Mus musculus with 14 samples.

Results

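Germ cell genes that are usually kept silent outside the germline were examined in mouse embryonic stem cells (ESCs). The list held Dazl, Ddx4, Sycp1, Sycp3, Mael, Stra8, Tex101, Tdrkh, Piwil2 and Slc25a31, and a gene was kept where its name occurred in the RNA-seq table. All 10 names occurred, among 22376 genes in that table. The rule uses no fold change or level, but a gene needs RNA reads to be in the table, so some RNA in the libraries is in part fixed by the choice. The libraries came from 2 conditional knockout systems, in which loxP-flanked (floxed) alleles are removed by Cre recombinase. Drosha fl/fl ESCs carried a CreERT2 transgene at the Rosa26 locus, in the controls as well, and Drosha was deleted with 100 nM 4-hydroxytamoxifen for 72 h followed by 48 h in medium without it, while the controls were left untreated. Dicer fl/fl ESCs were transduced with a retrovirus encoding GFP and Cre (Dicer-deficient) or GFP (control), and GFP-positive cells were sorted after 3 days and grown for 2 more. RNA-seq covered 3 control and 3 Drosha-deficient libraries, and Degradome-seq covered 2 libraries of each of the 4 groups. All ESCs grew with LIF on Mitomycin C-treated fibroblast feeders. Nothing in the labels says that libraries of a group came from separate cultures, so the p-values measure the spread between libraries, which may be technical.

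In somatic cells and in ESCs many germ cell genes are held down from CpG-rich promoters, by DNA methylation and by the polycomb complex PRC1.6. That complex is brought to DNA by MGA with MAX, which bind the E-box CACGTG, and by E2F6 with DP1 (the product of Tfdp1), which bind E2F sites. When germ cells form, the promoters lose methylation and the genes are switched on to drive meiosis and to silence transposons through piRNAs. DNA methylation and chromatin binding were not measured in these libraries.

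The promoter letters that the best known PRC1.6 subunits read are shown first, because they are what several of the genes share at their start. Promoters were taken from RefSeq (GRCm38.p6) from 250 bases before to 50 bases after the start, and 9 of the 10 genes had one. No promoter entry was matched for Piwil2. CACGTG reads alike on both strands, and the E2F letters TCCCGC were searched on both strands, where they read GCGGGA on the other. The windows below run 5′ to 3′ on the strand of the gene, with the matched letters in capitals.

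Sycp3 E-box (chr10:88459513-88459538, plus strand): cgttggctccCACGTGagaacgggca
Sycp3 second E-box (chr10:88459534-88459559, plus strand): gggcatggagCACGTGctaggaggcg
Sycp3 E2F letters (chr10:88459430-88459455, plus strand): ggaaggaacaGCGGGAaagtgctgct
Sycp1 E-box (chr3:102936179-102936204, minus strand): gagaacccggCACGTGggaagggaaa
Sycp1 E2F letters (chr3:102936083-102936108, minus strand): agcctcccagTCCCGCgagttctcgg
Ddx4 E-box (chr13:112652324-112652349, minus strand): cgtccgcccgCACGTGcagccgttta
Ddx4 E2F letters (chr13:112652431-112652456, minus strand): cgtccatgggGCGGGAagtcgcgcgc
Slc25a31 E-box (chr3:40708768-40708793, plus strand): caactggaaaCACGTGttatggtcac
Slc25a31 E2F letters (chr3:40708881-40708906, plus strand): gcgcccgcttTCCCGCcagggtaaag
Mael E-box (chr1:166238952-166238977, minus strand): ccaggcctacCACGTGacaatccccg
Mael E2F letters (chr1:166238872-166238897, minus strand): tcctcctcccTCCCGCcccctccgcc
Mael second E2F letters (chr1:166238718-166238743, minus strand): gttactaaggGCGGGAgcccggcaag

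Both sets of letters stood in the promoters of the same 5 genes, Sycp3, Sycp1, Ddx4, Slc25a31 and Mael. The E-box was thus present in 5 of 9 promoters, against 7.15% of 32841 RefSeq promoters of the same length. The E2F letters were also present in 5 of 9, against 19.98% of all promoters. Both together were in 5 of 9, against 1.99% of all promoters and 2.73% of protein-coding ones. Each set of letters holds a CG, and how far CpG content sets these shares was not tested. The longer form TTCCCGC, which contains TCCCGC, occurred in Sycp3, Ddx4 and Slc25a31, and in 4.60% of all promoters. Among 44 promoters of 33 other germline genes, 16 held the E-box, 15 held the E2F letters and 5 held both. The promoters of Dazl, Stra8, Tdrkh and Tex101 held neither in this window. For Stra8 and Tex101 the RefSeq start lies within the gene as annotated by GENCODE rather than at its first base, so their windows, chr6:34920698-34920997 and chr7:24672001-24672300, do not cover the outermost GENCODE start and their letters and CpG ratios are those of an inner start. A match describes letters and is not a measured binding site, and the list was drawn up for its known link to PRC1.6.

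The same promoters were rich in CpG. The ratio of observed to expected CpG is close to 1 where CpG has not been lost, and its median was 0.795 over the 9 promoters, 0.384 over all promoters and 0.588 over promoters of protein-coding genes. Ddx4 had the highest ratio, 0.978, with a GC content of 72.0%, and Tdrkh followed with 0.956. Stra8 was lowest, with 0.430 and 10 CpGs in the window, and it was the one member below the protein-coding median in this window. In a window of 500 bases either side of the start, Tex101 was also below it, with 0.436 against a protein-coding median of 0.581, where Stra8 had 0.463. In the shorter window, the 6 members other than Ddx4, Tdrkh and Stra8 lay between 0.666 for Sycp3 and 0.874 for Sycp1. The 44 promoters of other germline genes had a median of 0.680.

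**Figure D1:**
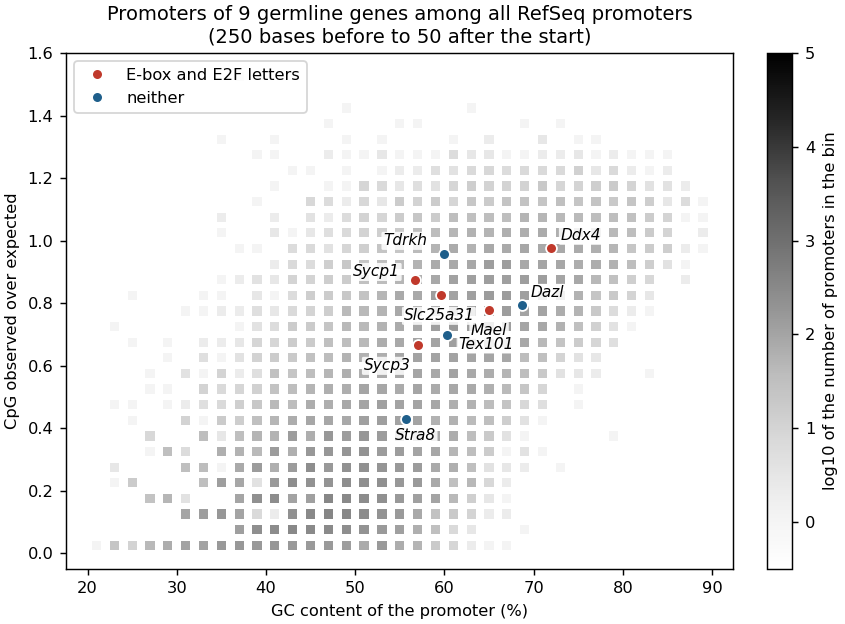
GC content (%) against the ratio of observed to expected CpG for the promoters of 9 germline genes (coloured points) over all RefSeq promoters (grey squares, darker for more promoters on a log10 scale). Red points held both the E-box and the E2F letters and blue points held neither, and Stra8 sits lowest at 0.430 while Ddx4 sits highest at 0.978.

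RNA from the 10 genes was present over a wide range in a mean pooled over the control and Drosha-deficient libraries. That mean does not divide the groups, so whether any of the genes was silent in control ESCs was not tested. The libraries come from ESCs grown on feeders, and which cells held the RNA was not tested. The level used here is the authors' mean log2 CPM, a read count scaled to library size, over the 6 RNA-seq libraries, control and Drosha-deficient together. It is a log2 of an average rather than an average of log2 values, so libraries where a gene is high weigh more. The table gives no value per library, so no spread between libraries can be given, and the level of Drosha in each library was not examined. The fold changes and tests that the authors deposited were not used here, so no test or value by group is given either. To compare genes with each other, the log2 of the exonic length in kb was subtracted, and the result is called the level per kb. On that scale 6 of the 10 genes lay above the median of 15459 protein-coding genes, which was 2.12, and the median of the 10 was 2.91. Their levels per kb ran from 7.03 for Stra8 to −1.21 for Tex101, a range of 8.25 log2 units. Without the correction for length, the median of the 10 was 4.20 log2 CPM against 4.27 for protein-coding genes.

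Stra8, Dazl and Ddx4 act at entry into meiosis or on germ cell RNA. Stra8 encodes a retinoic acid-responsive factor needed for meiotic entry. It lies at chr6:34920163-34939344 on the plus strand, with 1803 bases of exon. Its mean was 7.88 log2 CPM, or 236 CPM, and its level per kb of 7.03 was at the 98.5 percentile of protein-coding genes. Dazl encodes an RNA-binding protein that promotes translation in germ cells and lies at chr17:50279395-50293636 on the minus strand, with 3820 bases of exon. Its mean was 7.14 log2 CPM, and its level per kb was 5.21, at the 91.3 percentile. Ddx4 encodes the germ cell RNA helicase VASA and lies at chr13:112598333-112652475 on the minus strand, with 3014 bases of exon. Its mean was 5.68 log2 CPM and its level per kb 4.09, at the 79.3 percentile. All 3 of these genes thus lay at or above the 79.3 percentile by level per kb, and Stra8 stood highest of the 10.

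Sycp3 and Sycp1 belong to the synaptonemal complex, the protein axis that holds paired chromosomes together in meiosis. Sycp3, which encodes a component of its lateral elements, lies at chr10:88459569-88473236 on the plus strand with 1264 bases of exon. Its mean was 4.69 log2 CPM and its level per kb 4.35, at the 82.8 percentile. Of its exons, 660 bases overlap those of Chpt1 on the opposite strand, which had 5.32 log2 CPM. The libraries were made with a kit that keeps strand, but whether the counting used it is not given in the sources used here. If it did not, reads from the shared bases may belong to either gene. Sycp1, which encodes the transverse filaments, lies at chr3:102818499-102936100 on the minus strand with 3556 bases of exon. Its mean was 2.67 log2 CPM and its level per kb 0.84, at the 37.0 percentile, below the protein-coding median.

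Piwil2, Mael and Tdrkh act in the piRNA pathway, which silences transposons in the germline and in which Ddx4 also takes part. Piwil2 encodes a PIWI protein that binds piRNAs and lies at chr14:70372477-70429383 on the minus strand with 5287 bases of exon. Its mean was 5.31 log2 CPM and its level per kb 2.90, at the 61.5 percentile. Mael encodes a factor of germ granules needed for transposon silencing and lies at chr1:166201201-166238747 on the minus strand with 1733 bases of exon. Its mean was 3.71 log2 CPM, and its level per kb of 2.92 was nearly that of Piwil2. Tdrkh encodes a Tudor domain protein that takes part in piRNA trimming at mitochondria and lies at chr3:94413273-94434668 on the plus strand with 6142 bases of exon. Its mean was 2.45 log2 CPM and its level per kb −0.17, at the 29.2 percentile. Tdrkh shares 2255 exonic bases with Oaz3 on the opposite strand, which had −2.91 log2 CPM.

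The last members act later in sperm development. Slc25a31 encodes the ADP/ATP carrier of male germ cell mitochondria and lies at chr3:40708855-40726096 on the plus strand with 2128 bases of exon. Its mean was 2.69 log2 CPM and its level per kb 1.603, at the 44.2 percentile. Tex101 encodes a germ cell surface protein and lies at chr7:24668007-24676675 on the minus strand with 1657 bases of exon. Its mean was −0.48 log2 CPM, or 0.716 CPM, and its level per kb of −1.21 was at the 22.9 percentile. The pooled means of the 10 genes were not divided here between control and Drosha-deficient ESCs, as the deposited fold changes were not used. The order by level per kb was Stra8, Dazl, Sycp3, Ddx4, Mael, Piwil2, Slc25a31, Sycp1, Tdrkh and Tex101, and without a spread no neighbours in it can be said to differ.

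**Figure D2:**
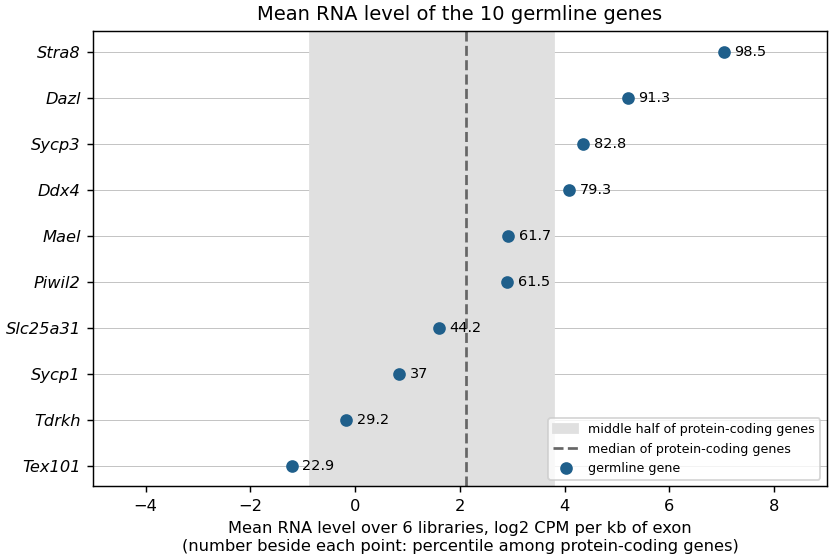
Mean RNA level of the 10 germline genes over 6 RNA-seq libraries, in log2 CPM per kb of exon, each with its percentile among protein-coding genes. The grey band is the interquartile range of 15459 protein-coding genes and the dashed line their median of 2.12, with 6 genes to its right.

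The other germline genes, genes for PRC1.6 and for DNA and H3K9 methylation, and markers of cell type were read on the same scale. Of 40 other germline genes, 38 were in the table, and 21 of these lay above the protein-coding median, with a list median of 2.26 per kb. Genes of each list are named by their mean log2 CPM, which is not corrected for length. The highest were Stag3, a meiotic cohesin subunit, with 6.83, and Syce2, a central element protein of the synaptonemal complex, with 6.70. The lowest were Tdrd6, with −2.63, and Meiob, with −1.11. All 15 PRC1.6 subunits were above the protein-coding median, with a list median of 4.66 per kb. Mga, the DNA-binding scaffold of the complex, had 8.60 log2 CPM and Wdr5 had 8.52, while Yaf2 had 3.71 and Ring1 had 3.93. Of 11 genes for DNA and H3K9 methylation, 10 were above it, and Dnmt1, the maintenance methyltransferase, had 9.40 log2 CPM while Trim28, a corepressor, had 9.64. Dnmt3b and Dnmt3l, which act in methylation of new sites, had 4.61 and 5.30, the lowest of the list without correction for length. The gene not above the protein-coding median was Dnmt3a, with 2.07 per kb. This list also holds Tet1 and Tet2, which encode enzymes that remove DNA methylation, with 9.05 and 6.70 log2 CPM, and both were among the 10. As these means are pooled over both groups, they do not show in which libraries RNA of the lists and of the germline genes occurred together.

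Markers of the ESCs and of other cells bear on where the RNA could come from. All 10 pluripotency markers lay above the protein-coding median, with a list median of 6.97 per kb, and Dppa5a and Pou5f1 had 10.19 and 9.78 log2 CPM while Utf1 and Klf4 had 6.14 and 6.56. Of 10 feeder fibroblast markers 3 lay above it, with a list median of 1.45 per kb. Fn1 and Vim had 11.20 and 7.50 log2 CPM, and S100a4 and Lum had −1.94 and −0.63. Of the rest of the list, the collagens Col1a1, Col1a2 and Col3a1 had 6.60, 5.17 and 3.13 log2 CPM, and Postn, Thy1 and Dcn had 4.48, 3.14 and 1.498. Of these 6, Col1a1 alone was above the median per kb. These 6 genes, and Dnmt3a, Tet1 and Tet2, were named after their values were seen. Of 8 markers of differentiating cells 2 lay above it, with a list median of −2.06 per kb. Nes and Krt18 had 5.31 and 4.21 log2 CPM, and Foxa2 and Sox17 had −2.07 and −1.45. Of 8 genes of differentiated male germ cells, Prm1, Prm2, Tnp1, Acrv1 and Pgk2 were not in the table, and Ldhc, Tnp2 and Zbtb16 had levels per kb of 1.12, −2.13 and −3.70. Of these, Zbtb16 marks undifferentiated spermatogonia and so goes against the name of the list. These markers have no value per library, so their part in the levels of the germline genes was not tested. In such bulk libraries, a gene on in a few cells and a gene low in every cell cannot be told apart.

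**Figure D3:**
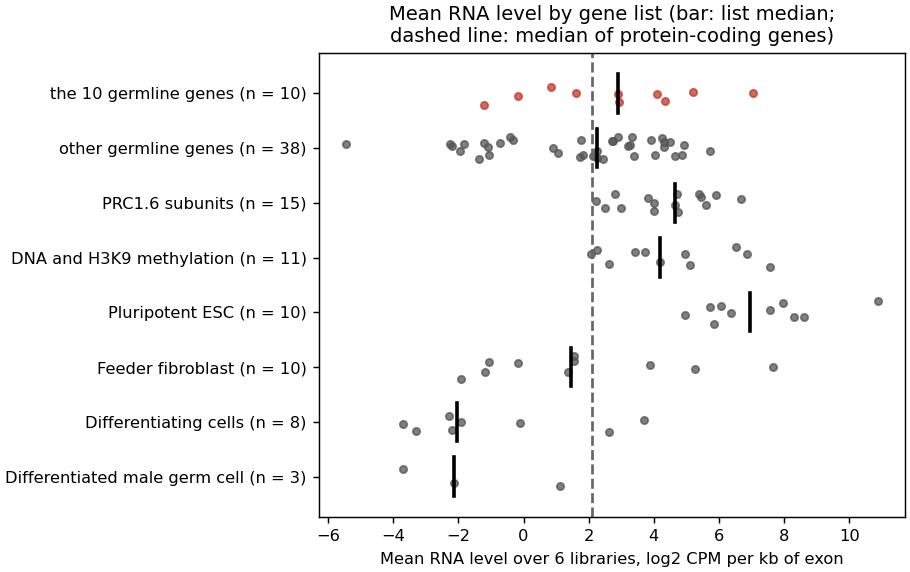
Mean RNA level per kb of exon (log2 CPM per kb, 6 RNA-seq libraries) for each gene of the 10 germline genes and of 7 comparison lists, where a point is a gene, the bar is the list median and the dashed line is the protein-coding median. The 10 germline genes (red) spread from −1.21 to 7.03 and overlap the pluripotency markers, which run from 4.95 to 10.88, as well as the markers of differentiating cells, which run from −3.71 to 3.69.

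Degradome-seq captures polyA RNA fragments with a 5′ monophosphate, as left by RNase III enzymes such as Drosha, and asks where such cuts occur. The tables list pile-up sites, positions where read starts gather, with RPM, the reads scaled to the library's mapped reads, in each library. The depth, worked out from the steps between low RPM values, was between 28.7 and 34.5 M reads per library. On that depth 3 reads corresponded to 0.0868 to 0.105 RPM. For the Drosha libraries it lies above the number of uniquely mapped reads that the authors stated, and the reason was not tested. None of the 10 genes held a pile-up site on its own strand, in an exon or in an intron, in the Drosha table of 3919 sites or the Dicer table of 4666 sites. Among protein-coding genes, 6.53% held such a site in the Drosha table and 8.01% in the Dicer table. That share was larger at higher RNA levels. In the bin of 6 to 8 log2 CPM, where Stra8 and Dazl fall, it was 12.7% and 15.0%, and in the bin of 2 to 4 log2 CPM, where Mael, Slc25a31, Sycp1 and Tdrkh fall, it was 3.66% and 4.55%. With 10 genes at such shares, a count of 0 lies near the background and is no result about the list. Of the 38 other germline genes, Nanos3, Dmc1, Fkbp6 and Tex14 held a same-strand site in both tables and Syce2 in the Drosha table alone, none of them in an exon.

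**Figure D4:**
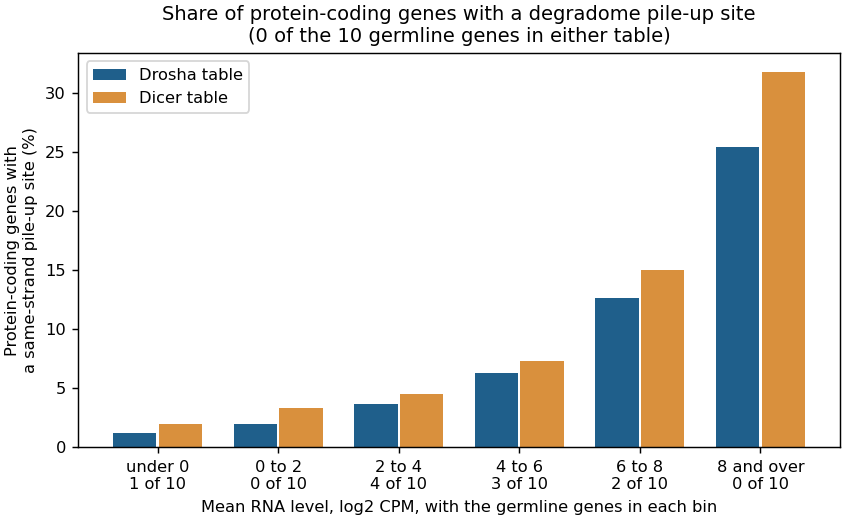
Percentage of protein-coding genes with a same-strand degradome pile-up site, by mean RNA level (log2 CPM), in the Drosha table (blue) and the Dicer table (orange), with the number of the 10 germline genes in each bin under the axis. The share reaches 25.5% and 31.8% in the highest bin, which holds none of the 10 genes.

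No comparison of Drosha-deficient with control ESCs could be made at a site in these genes, since the Drosha table held none on either strand. Of its 3919 sites, 1848 were called (47.2%) by limma, where a call needed an FDR below 0.05 together with a log2 difference beyond 1.5 in either direction, and 813 were called with a pseudocount of 1 RPM in place of 0.1 RPM. The Dicer table held 1 site within the bounds of a member. It lies in an intron of Sycp1 at chr3:102831004-102831033 (GRCm38), 2761 bases from the nearest exon edge, on the plus strand and so antisense to the gene. Sites antisense to a protein-coding gene were common, at 34.3% of the Dicer table. The reference is shown on each side of the first base of the reads, with the last 3 bases before it in capitals, so that they can be set against the 3′ end of the RNA linker ligated in library preparation.

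Sycp1 site, 30 bases before (chr3:102830974-102831003, plus strand): tcacagggagttttaagaatgcatattCTT
Sycp1 site, first 30 bases (chr3:102831004-102831033, plus strand): gagttggagagatggctcagtggttaagca

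Only 1 base directly before the site matched the 3′ end of the linker. All 30 bases of the site are masked as repeat in the reference, and this exact run of 30 occurs 1 time in the genome. The control libraries had 1.62 and 1.37 RPM at the site (56 and 47 reads), and the Dicer-deficient libraries had 1.32 and 1.59 RPM (39 and 52 reads). The values of the groups overlapped, since the lowest was a Dicer-deficient library, the highest a control library, and the other libraries lay between. Control libraries averaged 1.495 ± 0.178 RPM (SD, n = 2), and the average in Dicer-deficient ESCs was 1.45 ± 0.192 RPM (SD, n = 2). The log2 fold change was −0.04 with an SE of 0.45 on the scale of log2(RPM + 0.1), and its 95% interval ran from −1.12 to 1.04 (limma, FDR 0.977). The difference was smaller than the spread between libraries, and changes within that interval remain compatible with these libraries. The smallest FDR over the whole Dicer table was 0.465, so no site passed, whatever the size of its change. The site was a shallow one, since its mean of 1.47 RPM exceeded that of 16.7% of the sites and the median site had 3.35 RPM. Over the Dicer table, limma called 0 of 4666 sites (0%), with 459 at an unadjusted p under 0.05, and edgeR's quasi-likelihood test on recovered reads also called 0. A block for replicate number, whose meaning the labels do not give, raised the limma calls to 186. Without replicate 2 of the Dicer-deficient libraries limma called 14, in a fit where the lone library of that group is assumed to vary like the controls.

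**Figure D5:**
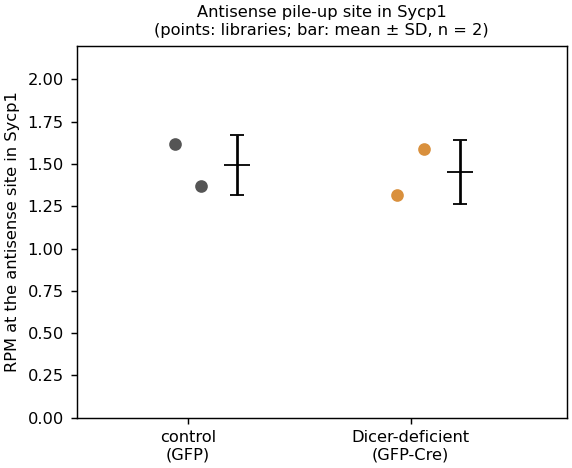
RPM at the antisense pile-up site in an intron of Sycp1 in the 2 control (GFP) and 2 Dicer-deficient (GFP-Cre) libraries, where points are libraries and bars are mean ± SD (n = 2). The libraries lie between 1.32 and 1.62 RPM and the groups overlap.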

How the data were processed

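The genes and comparison lists were chosen with earlier results of these data known. For Degradome-seq, the authors trimmed reads with Trimmomatic (0.38.0), aligned them with STAR to GRCm38 and deposited RPM of mapped reads at pile-up sites chosen by a classifier. They kept a site where the classifier found it in both control replicates. For RNA-seq, the authors aligned reads with STAR and deposited an edgeR table (version 3.26.1 in the submitters' processing notes), of which the mean log2 CPM was used here. The log2 fold changes, F statistics, p-values and FDR in the deposited tables are the authors' own comparisons and were not used.

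Levels per kb used the union of exons in GENCODE vM21 (GRCm38), which matched 22353 of 22376 genes. Low RPM values (up to 10) were whole multiples of 1 read in 100% of cases within 0.1 reads, which gave the depth of each library. Sites were tested with limma (3.58.1) on log2(RPM + 0.1) with a mean-variance trend, Benjamini-Hochberg over every site of a table with calls at an FDR below 0.05 together with a log2 difference beyond 1.5. On simulated data with the Dicer table's levels, 89.5% of 200 sites changed by 4-fold were recovered, and 1 of 4466 unchanged sites was called. The simulation gave every site the same extra variation, changed only sites above a minimum level and held no effect shared by same-numbered libraries. In the real Dicer libraries such deviations correlated at 0.53, so the share recovered does not measure power there. edgeR (4.0.16) on recovered reads was added after seeing the data. The floor of 3 reads covers counting error only. All 10 genes were named, and of each list the 2 highest and 2 lowest by mean log2 CPM, with further genes where the text says so.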

Additional observations from a re-analysis of the deposited data

How the results depend on the processing

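Called sites in the Drosha table fell from 1848 to 813 with a pseudocount of 1 RPM, ran from 1307 to 1802 when a library was left out, and were 1823 to 1909 under the other settings. For the Dicer comparison 0 sites were called, and 186 with a replicate block. Leaving out a library gave 0 to 14, the 14 without replicate 2 of the Dicer-deficient libraries. Each such fit leaves 1 library in a group, which is assumed to vary like the other group, so these values are weak checks. The labels say nothing of what a shared number means. Deviations of same-numbered libraries correlated at 0.53 over the Dicer sites and 0.13 over the Drosha sites, a hint from the data, not the design, that they vary together. At the Sycp1 site the block left the log2 fold change at −0.04 (limma, FDR 0.973). Leaving out a library gave −0.17 to 0.09, which turned the direction to 0.07 without control replicate 1 and 0.086 without Dicer-deficient replicate 1, with no call in any setting. The cause was not tested.

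Counting either strand gave 1 gene of the 10 with a site in the Dicer table and 0 in the Drosha table. The share of all genes with a same-strand site was 5.34% in the Drosha table and 6.38% in the Dicer table. It became 10.6% and 11.1% on either strand, 2.89% and 3.01% within exons, and 6.53% and 8.01% of protein-coding genes. The median percentile of the 10 genes by mean log2 CPM was 63.4 among all genes, 49.6 among protein-coding genes and 69.9 per kb. By CpG ratio, the median percentile of the 9 genes with a promoter was 78.7 among all promoters and 70.4 among protein-coding ones. It was 76.1 in windows of 500 bases either side. In those windows 5 of 9 promoters held the E-box against 16.6% of all, and 7 of 9 the E2F letters against 38.9%. Of the 44 promoters of other germline genes, 22 held the E-box and 25 the E2F letters in the same windows. In the windows of 250 bases before to 50 after the start, the shares among protein-coding promoters were 8.03% and 26.5%, and in the wider ones 17.7% and 50.04%. The Sycp1 site rests on 39 to 56 reads per library, and whether depth limits it was not tested.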
